A study of Mus musculus with 8 samples.

Results

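The clustered protocadherins were examined in mouse embryonic stem cells (ESCs) with and without Dax1. Members were taken by symbol, as genes named Pcdha, Pcdhb or Pcdhg followed by a digit or by the letter a, b or c and a digit. The rule used no measured value. It found 58 of the 52550 genes listed, with 14 in the alpha cluster, 22 in the beta cluster and 22 in the gamma cluster, and all of them lie in tandem on the plus strand of chromosome 18.

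Clustered protocadherins are cadherin-like adhesion proteins of the cell surface, best known from neurons. In the alpha and gamma clusters each gene has its own promoter and a large variable exon for the extracellular, transmembrane and upper cytoplasmic parts, which is spliced to constant exons that all genes of the cluster share. Beta genes have a variable exon alone. In neurons a cell uses a small and seemingly random set of these promoters, which depends on CTCF, cohesin and DNA methylation, and the resulting mixture of proteins binds the same mixture on another cell. The C-type genes at the ends of the alpha and gamma clusters (Pcdhac1, Pcdhac2, Pcdhgc3, Pcdhgc4 and Pcdhgc5) are used more constantly than the others.

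The control cells were ESCs with intact Dax1, and the Dax1KO cells were a line made with CRISPR/Cas9, a single clone picked in 2i/LIF. Both were grown in 2i/LIF (N2B27 with 1 µM of the MEK inhibitor PD0325901, 3 µM of the GSK3 inhibitor CHIR99021 and 10 ng/ml LIF) and in LIF/serum (DMEM with 15% fetal bovine serum and 10 ng/ml LIF). There were 2 mRNA libraries in each of the 4 groups, all labelled passage 3. Nothing says that they came from separate cultures, so p-values measure the spread between libraries, which may be technical.

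Dax1 (Nr0b1) had counts of 456 and 300 in control cells and 0 in both Dax1KO libraries in 2i/LIF, and of 5095 and 4689 against 14 and 6 in LIF/serum. Totals lay between 35911384 and 37286251 counts per library. All 10 ESC markers examined had counts above 3 in all 8 libraries. Counts of 3 or fewer were taken as the floor of detection, for counting error only, and low values were uneven: over all genes and libraries 3 was found 11738 times, 2 was found 7071 times and 4 was found 3938 times. A count of 3 may thus stand for fewer than 3 fragments, which was not tested.

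On GRCm38 the alpha cluster spans chr18:36930184-37187661, the beta cluster chr18:37264938-37524479 and the gamma cluster chr18:37661793-37841873. By the GENCODE annotation, the alpha genes shared a median of 53.4% of their exon bases with other members and the gamma genes a median of 44.7%, because the constant exons belong to each of them. For beta genes the median was 0%. The files hold 1 count per gene and none per exon, and how reads on shared exons were assigned is not given in the sources used here. Counts of single alpha and gamma genes are therefore uncertain, while the sum over a cluster is not changed by how counted reads were divided within it. A sum over only part of the alpha or gamma cluster is uncertain in the same way as single genes.

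The 3 clusters differed widely in level. The gamma genes summed to 3121 to 5067 counts per library, the alpha genes to 9 to 145, and the beta genes to 6 to 59. Of the 22 gamma genes, 21 had counts above 3 in all 8 libraries, and the other, Pcdhga6, missed that level in a single library. In the alpha cluster 1 gene of 14, Pcdhac2, did so, and in the beta cluster none of 22. Across all genes 20749 passed the filter on low counts, and these included 25 members, namely the 22 gamma genes, Pcdha1, Pcdhac2 and Pcdhb17.

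**Figure D1:**
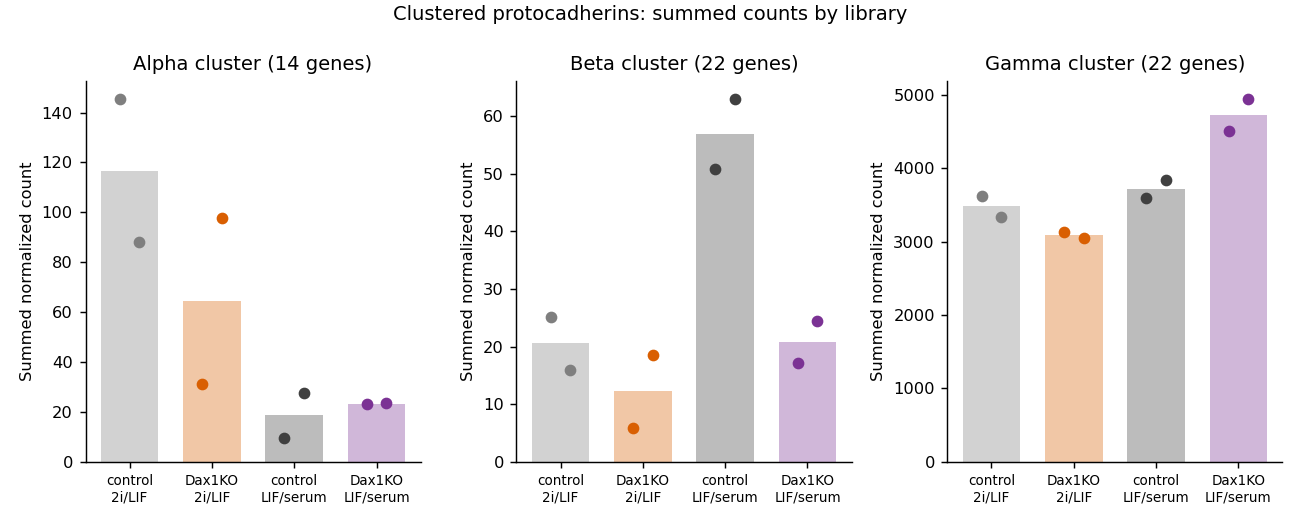
Summed normalized counts of the alpha, beta and gamma clusters (y axis, linear, from 0) in the 4 groups (x axis). Points are the 2 libraries of a group and bars their mean. The gamma sum lies between 3051 and 4941, with replicates 1.03-fold to 1.09-fold apart. The alpha and beta sums stay below 146 and 63, with replicates 1.02-fold to 3.14-fold and 1.24-fold to 3.18-fold apart.

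The summed gamma cluster was the steadiest of the 3. Its counts were 3609 and 3337 in control cells and 3221 and 3121 in Dax1KO cells in 2i/LIF. In LIF/serum they were 3386 and 3598 in control cells and 4718 and 5067 in Dax1KO cells. The Dax1KO libraries in LIF/serum were thus the highest of the 8 and the Dax1KO libraries in 2i/LIF the lowest. After scaling each library by its TMM factor, replicates differed by 1.03-fold to 1.09-fold.

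As normalized counts, the gamma sum was 3478 ± 199 in control cells and 3092 ± 58.3 in Dax1KO cells in 2i/LIF (SD, n = 2 each), a ratio of 0.889. In LIF/serum it was 3713 ± 176 in control cells and 4727 ± 302 in Dax1KO cells (SD, n = 2 each), 1.27-fold higher. Neither pair of groups overlapped. No test was made on a sum over members, and the direction in 2i/LIF hung on Pcdhgb1, the member with the most counts. Without it the log2 ratio went from -0.17 to 0.04 in 2i/LIF. In control cells the gamma sum of both media overlapped, with a ratio of 2i/LIF to LIF/serum of 0.937, and in Dax1KO cells this ratio was 0.654. The overlap in control cells also hung on Pcdhgb1. Without it the sum was 1893 and 2536 counts in 2i/LIF and 2920 and 3488 in LIF/serum, a ratio of 0.651 as normalized counts, with no overlap.

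Markers of other cell types moved in the same comparisons. The summed neuron markers (8 of 12 above 3 counts in all libraries, with Dcx, Rbfox3, Snap25 and Syt1 at or under 3 in some) ranged from 30350 to 35320 in control and from 23260 to 26360 in Dax1KO cells in LIF/serum, and from 9327 to 12180 and 9246 to 10630 in 2i/LIF. Stmn2 had the most counts of this list in all 8 libraries and gave most of the sum in LIF/serum. Of the neuron markers Elavl3 was called lower in Dax1KO cells in 2i/LIF (log2 fold change -1.28, adjusted p = 0.0491) and Gap43 in LIF/serum (-1.46, adjusted p = 0.0079). The fibroblast markers (3 of 8 above 3 counts in all libraries, not Col1a2, Col3a1, Dcn, Lum or Postn) moved unevenly. Their sum ranged from 580 to 633 in control and from 1872 to 1988 in Dax1KO cells in LIF/serum, and from 2019 to 2467 and 1724 to 1765 in 2i/LIF, where most of it was Thy1. Without Thy1 it was higher in Dax1KO cells in both media, at 166 to 224 against 585 to 738 in LIF/serum and 278 to 294 against 638 to 674 in 2i/LIF. In 2i/LIF most of this rise was Pdgfrb, with 146 and 104 counts in control and 429 and 472 in Dax1KO cells. There Col1a1 had 117 and 134 counts against 149 and 118. Pdgfrb was called higher in Dax1KO cells in both media (1.79, adjusted p = 0.0065 in LIF/serum, and 1.81, adjusted p = 0.0167 in 2i/LIF), and Col1a1 in LIF/serum (2.13, adjusted p = 0.0108). Thy1 was called higher in LIF/serum (1.63) and lower in 2i/LIF (-0.85), and its Dax1KO effect differed between media (2.47, adjusted p = 0.0036). The neural progenitor markers (3 of 6 above 3 counts in all libraries, Fabp7 and Neurog2 at 0 in all) summed to 1042 to 1074 in control and 664 to 684 in Dax1KO cells in LIF/serum, and to 3098 to 3139 and 2898 to 3046 in 2i/LIF. Among them Pax6 was called lower in Dax1KO cells in LIF/serum (-2.30, adjusted p = 0.0062) and differed between media in its Dax1KO effect (-2.68, adjusted p = 0.03). Between media 6 of 10 tested neuron markers were called lower and 3 higher in 2i/LIF, in each line. Of fibroblast markers 1 was lower and 4 higher in control cells, and 1 and 2 in Dax1KO cells. Of neural progenitor markers 0 were lower and 1 higher in control cells, and 1 and 2 in Dax1KO cells. Over all tested genes 16.5% and 20.3% were lower and higher in control cells, and 13.7% and 15.2% in Dax1KO cells. The part of other cell types in the gamma sum or in calls between media was not tested. In bulk samples fewer cells of a type and less RNA per cell cannot be told apart.

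Single gamma genes behaved unlike their sum. Pcdhgb1, a B-type gene, took 47.5% and 24.0% of the gamma sum in the control libraries in 2i/LIF (95% Wilson intervals 45.9% to 49.2% and 22.6% to 25.5%). In the first Dax1KO library in 2i/LIF it took 52.0% (50.3% to 53.8%), with 1676 counts, and in the second it had 5 counts. There Pcdhgb8, annotated as a polymorphic pseudogene, took 73.0% (71.4% to 74.5%), with 2278 counts against 48 in the first. Thus libraries of the same clone and medium, with gamma sums of 3221 and 3121, were led by different genes.

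In LIF/serum the leading gene took at most 23.5% of the gamma sum, close to the 24.0% of the second control library in 2i/LIF. The leading gene was Pcdhga6 with 19.5% (18.2% to 20.9%) in the first control library and Pcdhgc4 with 16.6% (15.4% to 17.8%) in the second. In Dax1KO cells it was Pcdhgc4 with 23.5% (22.3% to 24.7%) and Pcdhgb2 with 17.3% (16.3% to 18.4%). Pcdhgc4, a C-type gene known for its part in the survival of cortical interneurons, had 16 and 596 counts in control cells and 1108 and 4 in Dax1KO cells in LIF/serum, but only 11 to 19 in the 4 libraries in 2i/LIF. The median count over the 22 genes was 101 and 110 in control and 129 and 173 in Dax1KO libraries in LIF/serum, above the 38.5 and 86.0 and the 38.5 and 14.5 in 2i/LIF.

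**Figure D2:**
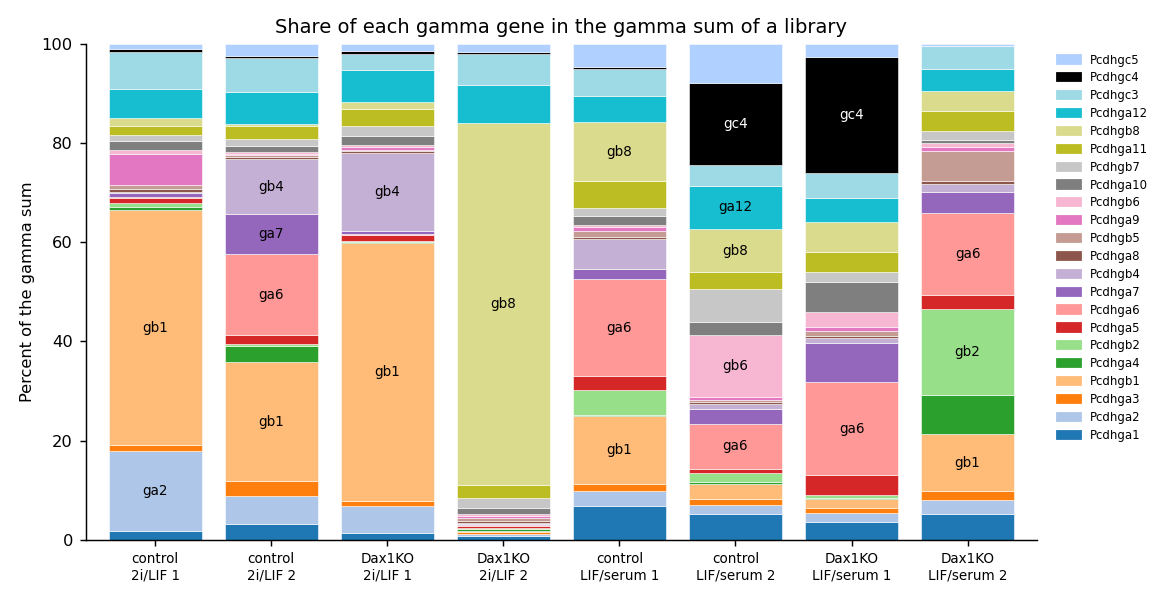
Percent of the summed gamma count (y axis) taken by each of the 22 gamma genes in each library (x axis, replicate number after the medium), stacked in the order of the genes along the cluster, with genes of at least 8% named without the prefix Pcdh. Pcdhgb1 takes 52.0% of the first Dax1KO library in 2i/LIF and Pcdhgb8 takes 73.0% of the second.

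The spread between replicates was compared with other genes. The absolute log2 difference between replicates had a median over the 22 gamma genes of 0.96 and 0.89 in control and Dax1KO cells in 2i/LIF, and of 0.84 and 0.68 in LIF/serum. For the 9442 other tested genes within the same range of mean normalized count (17.4 to 678) these medians were 0.31, 0.26, 0.35 and 0.29. In at least 1 of the 4 groups, 15 of 22 gamma genes (68.2%) differed 4-fold or more between replicates, against 904 of 9442 other genes (9.57%). The number of such gamma genes was 6, 4, 5 and 7 in the groups in the above order, so it was not a feature of a single group or library. The genes share constant exons and a locus, so they are not independent, and no p is given. The other genes were matched by mean count and not by shared exon bases. How reads on shared exons were assigned is not given, and its part in this spread was not tested.

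The order of the genes was barely kept between replicates. Spearman's rho over the 22 gamma genes, which share library and constant exons, was 0.13 and 0.23 in control and Dax1KO cells in 2i/LIF and 0.34 and -0.10 in LIF/serum. Over all 8 libraries, the highest normalized count of a gene exceeded its lowest by 352-fold for Pcdhgb1, 291-fold for Pcdhga6, 272-fold for Pcdhgc4 and 185-fold for Pcdhgb8. The lowest count of Pcdhga6 was 3, at the floor, and those of Pcdhgc4 and Pcdhgb1 were 4 and 5, so these ratios are uncertain. A few genes stood at the other end. Pcdhga12, named after its values were seen, varied 1.78-fold, with counts of 178 to 314, Pcdhgc3 varied 2.70-fold, with 102 to 267, and Pcdhga11 varied 2.99-fold, with 68 to 209.

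**Figure D3:**
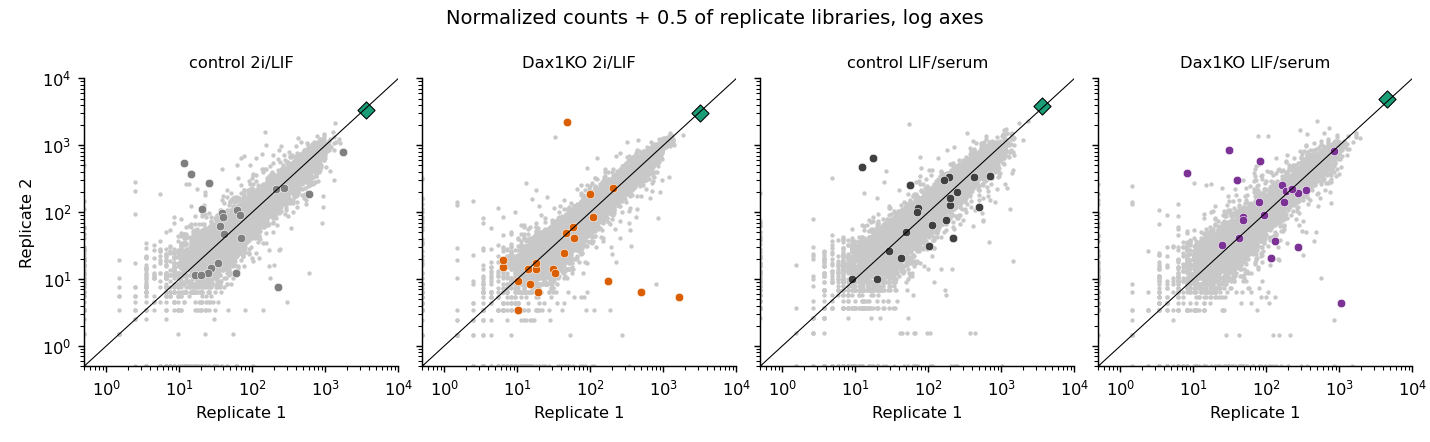
Normalized count plus 0.5 in replicate 1 (x axis) and replicate 2 (y axis) of each group, both on log axes. Coloured points are the 22 gamma genes, grey points the 9442 other tested genes with mean normalized counts of 17.4 to 678, the diamond is the gamma sum, and the line marks equality. Between 4 and 7 gamma genes per group lie 4-fold or more off the line while the sum lies on it.

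Per kilobase of exon, the mean normalized count over all libraries was highest for Pcdhgb1 (117), Pcdhgb8 (96.8), Pcdhga6 (86.6) and Pcdhgc4 (39.8) among gamma genes. This mean pools groups that differ strongly. Pcdhgc4 had most of its counts in the second control and the first Dax1KO library in LIF/serum. Pcdhgb1 was highest in 2i/LIF, apart from the second Dax1KO library, and had 84 to 588 counts in LIF/serum. Pcdhgb8 was highest in that second Dax1KO library and had 199 to 401 in LIF/serum. Pcdhga6 had 3 to 11 counts in 3 of the 4 libraries in 2i/LIF and 325 to 891 in LIF/serum. The mean per kilobase was 36.1 for Pcdhgc3 and 13.3 for Pcdhgc5. Outside the gamma cluster the highest values were 7.52 for Pcdhac2 and 1.48 for Pcdhb17.

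Dax1KO cells were then compared with control cells in 2i/LIF, gene by gene, with edgeR's quasi-likelihood test fitted over all 20749 genes and Benjamini-Hochberg adjustment. Of the 25 members tested, 0 were called, that is, none had both an adjusted p up to 0.05 and a change of 1.2-fold or more, where 1.51% of all tested genes were called higher and 1.65% lower. At an unadjusted p under 0.05 and a change of 1.2-fold or more there were 7, 1 higher and 6 lower, where 17.7% of all tested genes passed. DESeq2 called 3, namely Pcdhga6 and Pcdhga7 lower and Pcdhgb8 higher, and 7.94% of the genes to which it gave an adjusted p. Libraries of the groups did not overlap for 1 higher and 9 lower members, where 25.0% and 26.8% of all tested genes were higher and lower in this way. The smallest adjusted p of a member was 0.116 by edgeR.

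Among gamma genes, 15 of 22 had estimates below 0 in 2i/LIF, with a median log2 fold change of -0.73 against -0.01 over all tested genes. Their median standard error of 1.02 was larger than that median in size, and over all tested genes it was 0.25. The estimates are not independent. In the second Dax1KO library Pcdhgb8 took 73.0% of the gamma sum, and the median count per gene was 14.5, against 38.5 in the first. The A-type genes summed to 1370 and 1742 counts in control cells and to 734 and 477 in Dax1KO cells. As normalized counts these were 1558 ± 261 and 590 ± 175 (SD, n = 2 each), a ratio of 0.379, and 9 of 12 A-type genes had estimates below 0. The B-type sum was higher, at 1914 and 1275 against 2320 and 2385 counts, and the C-type sum lower, at 325 and 320 against 167 and 259. Neither sum overlapped between groups, and none of the 3 was tested. All 3 may depend on how reads on shared exons were assigned.

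Among these genes Pcdhga6 had 11 and 541 counts in control cells and 10 and 3 in Dax1KO cells, so that only the second control library stood out. Its log2 fold change was -5.42 (SE 1.57, adjusted p = 0.116). Pcdhga7 had 25 and 269 counts against 19 and 6 (-3.58, SE 1.04, adjusted p = 0.118). Without the second control library these values were -0.77 for Pcdhga6 and -1.02 for Pcdhga7. Pcdhga1, the first gene of the cluster, had 62 and 107 counts against 44 and 25, with no overlap and less spread (-1.33, SE 0.40, adjusted p = 0.130), or -0.87 without the second control library. Pcdhgc3, the C-type gene with the most even counts, had 267 and 226 against 102 and 193 (-0.78, SE 0.30, adjusted p = 0.230), or -0.39 without the first Dax1KO library and -1.31 without the second.

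The count of 0 in 2i/LIF depended on single libraries. Fits with a library left out, here and below, tested 26 to 28 members. The share of all tested genes called in those fits is not given, so their counts have no background to be set against. Without the first control library in 2i/LIF 2 members were called (Pcdhga6 and Pcdhga7, both lower), without the second 1 (Pcdhga9, lower), and without the first Dax1KO library 1 (Pcdhgb8, higher). Pcdhgb8 had 60 and 12 counts in control cells and 48 and 2278 in Dax1KO cells, and its log2 fold change of 4.97 was 0.37 without the second Dax1KO library. Pcdhga9 had 227 and 7 counts in control cells and 18 and 14 in Dax1KO cells, and without the first control library its log2 fold change turned from -2.90 to 1.14.

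**Figure D4:**
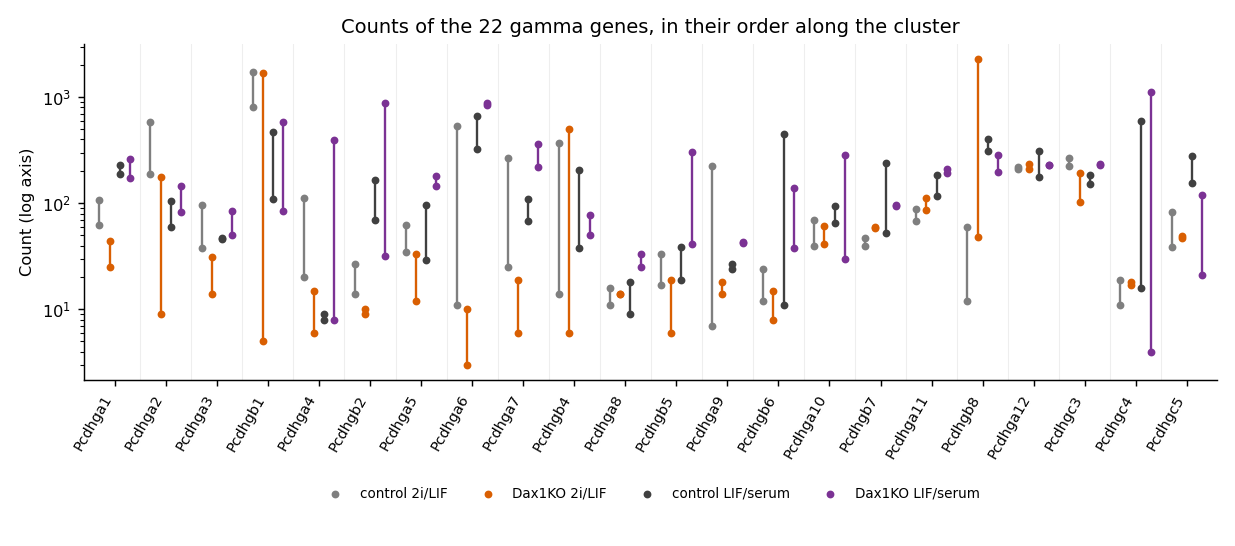
Count (y axis, log) of each gamma gene (x axis, in order along the cluster) in each library, with a line joining the 2 libraries of a group. Long lines such as that of Pcdhgb1 in Dax1KO cells in 2i/LIF, from 5 to 1676, stand beside short ones such as those of Pcdhga12, whose counts stay between 178 and 314.

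In LIF/serum the test of Dax1KO against control cells called 0 of 25 members by edgeR, where 8.87% of all tested genes were called higher and 5.78% lower. At an unadjusted p under 0.05 there were 3, where 30.5% of all tested genes passed. DESeq2 called the same 3, Pcdhga4 and Pcdhgb5 higher and Pcdhgc5 lower, and 19.7% of the genes with an adjusted p. The smallest adjusted p by edgeR was 0.101. Libraries of the groups did not overlap for 6 higher and 3 lower members, where 30.3% and 27.2% of all tested genes were higher and lower in this way. Gamma genes, which are not independent, had estimates above 0 for 15 of 22. Their median log2 fold change was 0.37, against 0.01 over all tested genes, with a median standard error of 0.89.

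The A-type sum was 1689 and 1328 counts in control cells and 2529 and 2634 in Dax1KO cells in LIF/serum. It was 1.56-fold higher as normalized counts (2494 ± 105 against 1603 ± 264, SD, n = 2 each), without overlap, and 10 of 12 A-type genes had estimates above 0. The B-type sum, 1341 and 1241 against 727 and 2180 counts, and the C-type sum, 356 and 1029 against 1462 and 253, overlapped. These sums too may depend on how reads on shared exons were assigned. Pcdhga4 had 8 and 9 counts in control cells and 8 and 394 in Dax1KO cells. Its log2 fold change of 4.42 (SE 1.58, adjusted p = 0.101) turned to -0.23 without the second Dax1KO library. Pcdhgb5, with 39 and 19 against 41 and 306 counts, had a log2 fold change of 2.45 (SE 0.91, adjusted p = 0.112), which was 0.35 without the same library. Pcdhgc5, a C-type gene, had 155 and 280 against 120 and 21 (-1.77, SE 0.70, adjusted p = 0.130), or -1.01 without the second Dax1KO library and -3.49 without the first.

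Without the first Dax1KO library in LIF/serum 4 members were called, Pcdhga4, Pcdhgb2 and Pcdhgb5 higher and Pcdhgc5 lower. Without the first control library in LIF/serum 1 was called, Pcdhgb7, lower. A fit of the LIF/serum groups alone called Pcdhga7 higher.

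The difference of the Dax1KO effect between media was tested as an interaction. It was called for 0 of 25 members by edgeR and for 2.87% of all tested genes. At an unadjusted p under 0.05 there were 9, where 19.1% of all tested genes passed. Of the 9, 8 had a more positive effect in LIF/serum, as had 62.1% of all genes that passed. Both Dax1KO libraries lay below both controls in 2i/LIF and above them in LIF/serum for 4 of 25 members, where 5.90% of all tested genes did so, and the reverse held for 0 members and 3.60% of all tested genes. These 4 share constant exons, and the counts were not tested. DESeq2 called 2, Pcdhga4 and Pcdhga7, and 8.42% of the genes with an adjusted p. Pcdhga7, with 68 and 109 counts in control and 365 and 219 in Dax1KO cells in LIF/serum, had the smallest adjusted p by edgeR (0.0936), with a log2 difference of 5.16 (SE 1.37), or 2.58 without the second control library in 2i/LIF. The number of members called was 2 without the first control library in 2i/LIF (Pcdhga6 and Pcdhga7) and 1 without the second (Pcdhga9). It was also 1 without the first Dax1KO library in 2i/LIF (Pcdhgb8) and 1 without the first in LIF/serum (Pcdhga4).

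Media were next compared within each cell line. In Dax1KO cells 7 members, all of the gamma cluster, were called lower in 2i/LIF than in LIF/serum, where 13.7% of all tested genes were called lower, and 0 were called higher by edgeR or DESeq2, where 15.2% of all tested genes were. At an unadjusted p under 0.05 there were 10, all lower, where 39.9% of all tested genes passed. DESeq2 called 8, the same 7 and Pcdhga4, and 30.9% of all tested genes. All 12 A-type genes had estimates below 0, with a median log2 fold change of -1.59. Over the 22 gamma genes, which are not independent, 19 were below 0, with a median of -1.48 against 0.01 over all tested genes.

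Pcdhga1 had the smallest adjusted p of these. It had 44 and 25 counts in Dax1KO cells in 2i/LIF and 173 and 263 in LIF/serum. The log2 fold change was -2.64 (SE 0.40, adjusted p = 0.0023), and Pcdhga1 was called under all 17 alternatives that were run for it, with values of -3.10 to -2.29. Pcdhga6 had 10 and 3 counts against 891 and 837 (-7.01, SE 1.59, adjusted p = 0.0134). Pcdhga5 had 33 and 12 against 182 and 146 (-2.84, SE 0.66, adjusted p = 0.0142). Pcdhga7 had 19 and 6 against 365 and 219 (-4.52, SE 1.06, adjusted p = 0.0152). With single libraries left out these values ranged from -8.09 to -6.40 for Pcdhga6, from -3.74 to -2.30 for Pcdhga5 and from -5.55 to -3.92 for Pcdhga7, with adjusted p by edgeR up to 0.104, 0.0969 and 0.112. Each range ran from the value without the first to that without the second Dax1KO library in 2i/LIF.

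The other called genes were Pcdhgb2 with 10 and 9 counts against 32 and 878 (log2 fold change -5.56, adjusted p = 0.0215), Pcdhgb5 with 6 and 19 against 41 and 306 (-3.78, adjusted p = 0.0242) and Pcdhga11 with 112 and 87 against 194 and 209 (-1.0, adjusted p = 0.0352). The first Dax1KO library in LIF/serum lay well under the second for Pcdhgb2 and Pcdhgb5, and both lay above those in 2i/LIF for all 7. Without the second the log2 fold change was -1.71 for Pcdhgb2 and -1.67 for Pcdhgb5, and neither was called. With the first Dax1KO library in 2i/LIF left out 4 members were called, of which Pcdhgb8 was higher in 2i/LIF and Pcdhga1, Pcdhga2 and Pcdhga5 lower. With the second left out 2 were called, Pcdhga1 and Pcdhgc3. Without the first Dax1KO library in LIF/serum there were 5 (Pcdhga1, Pcdhga4, Pcdhga6, Pcdhgb2 and Pcdhgb5), and without the second 6 (Pcdhga1, Pcdhga5, Pcdhga6, Pcdhga7, Pcdhga10 and Pcdhgc4). Without a filter on low counts 3 were called, Pcdhga1, Pcdhga5 and Pcdhga6.

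In control cells 3 members were called lower in 2i/LIF than in LIF/serum, where 16.5% of all tested genes were called lower, and 0 were called higher by edgeR, where 20.3% of all tested genes were. At an unadjusted p under 0.05 there were 7, 1 of them higher, where 46.6% of all tested genes passed. DESeq2 called 6, with 1 higher, Pcdhac2, and 38.3% of all tested genes. Pcdhga1 had 62 and 107 counts in 2i/LIF and 230 and 190 in LIF/serum (log2 fold change -1.40, SE 0.38, adjusted p = 0.0211). Pcdhga11 had 68 and 89 against 186 and 118 (-1.04, SE 0.30, adjusted p = 0.0266). Pcdhgb7 had 40 and 47 against 52 and 240 (-1.83, SE 0.61, adjusted p = 0.0458), so that its first LIF/serum library lay close to those in 2i/LIF, and without the second the value was -0.36.

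These calls in control cells were not stable. Without the first control library in 2i/LIF 0 were called by edgeR, and without the second 3, Pcdhga1 and Pcdhga6 lower and Pcdhga9 higher. Without the first control library in LIF/serum Pcdhgb6 and Pcdhgb7 were called, and without the second Pcdhga1 and Pcdhga11. Without either Dax1KO library in 2i/LIF 5 were called, each time Pcdhga1, Pcdhga11 and Pcdhgb8 lower and Pcdhga2 and Pcdhac2 higher. Without the first Dax1KO library in LIF/serum 6, and without the second 5. Entering the replicate number as a block again gave 3, of which Pcdhac2 was higher and Pcdhga1 and Pcdhga11 lower, so Pcdhgb7 was lost.

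The alpha cluster was carried by Pcdhac2, its last C-type gene. Pcdhac2 had 142 and 56 counts in control and 11 and 86 in Dax1KO cells in 2i/LIF, and 6 and 23 in control and 7 and 24 in Dax1KO cells in LIF/serum. All control libraries in 2i/LIF lay above all libraries in LIF/serum, and the first Dax1KO library in 2i/LIF lay among the latter. In control cells its log2 fold change between media was 2.67 (SE 1.04, adjusted p = 0.0785 by edgeR, and 0.0258 by DESeq2). It was 1.85 without the first control library in 2i/LIF and 3.91 without the second in LIF/serum. For Dax1KO against control it was -1.06 in 2i/LIF (SE 0.95, adjusted p = 0.647) and -0.04 in LIF/serum (SE 1.11, adjusted p = 0.995).

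The alpha sum followed it, at 145 and 88 counts in control and 32 and 100 in Dax1KO cells in 2i/LIF, and at 9 and 26 in control and 24 and 24 in Dax1KO cells in LIF/serum. As normalized counts it was 6.26-fold higher in 2i/LIF than in LIF/serum in control cells (117 ± 40.6 against 18.6 ± 12.9, SD, n = 2 each) and 2.78-fold higher in Dax1KO cells (64.4 ± 47.1 against 23.2 ± 0.313, SD, n = 2 each), without overlap in either. Dax1KO and control cells overlapped in both media. In control cells the log2 ratio of media was 2.07 without the first control library in LIF/serum and 3.61 without the second. Without the first Dax1KO library in 2i/LIF the log2 ratio of media in Dax1KO cells was 2.08, and without the second 0.43.

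Of the other alpha genes, Pcdha1 had 31 counts in the second control library and 17 in the first Dax1KO library in 2i/LIF and 0 in the other 6 libraries. Pcdhac1, the other C-type gene of the cluster, was at 0 in all libraries, as were 4 more alpha genes, and a count of 0 allows up to 3 counts. None of the other alpha genes exceeded 7 counts in any library. A pair of entries carry the symbol Pcdha11, of which ENSMUSG00000007440.10 starts 117 bases from the gene that RefSeq names Pcdha10, and both had 0 counts in all libraries but the first of Dax1KO cells in LIF/serum.

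**Figure D5:**
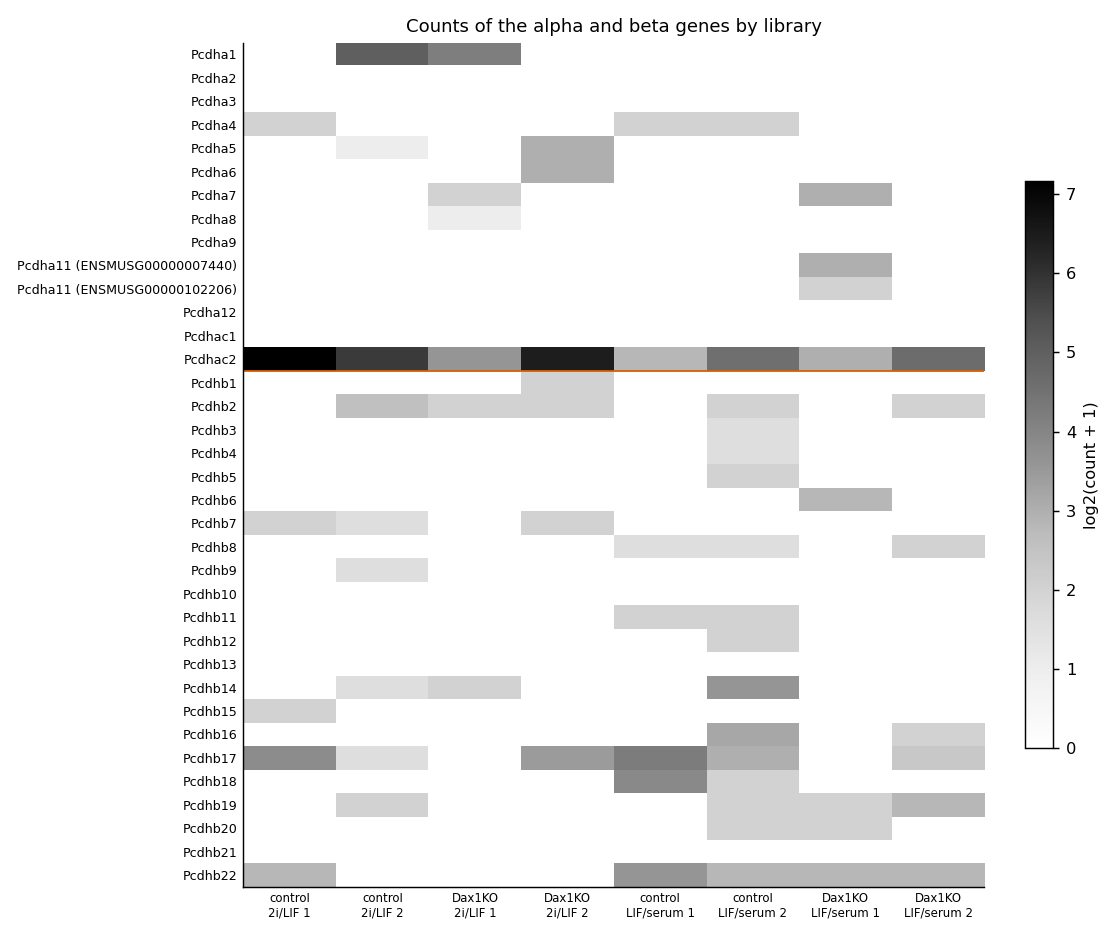
Count of each alpha gene (above the line) and beta gene (below it) in each library, as log2 of the count plus 1 in shades of grey, genes in their order along the chromosome. Pcdhac2 is the only row filled in all 8 libraries, from 6 to 142 counts, and no beta gene exceeds 18.

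The beta cluster lay near the floor. Of its 22 genes, 3 were at 0 in all libraries, 14 had at most 3 counts in every library and none had more than 18. The sum was 25 and 16 counts in control and 6 and 19 in Dax1KO cells in 2i/LIF, and 48 and 59 in control and 18 and 25 in Dax1KO cells in LIF/serum. The control libraries in LIF/serum were thus above all others. As normalized counts the sum in LIF/serum was 20.8 ± 5.06 in Dax1KO and 56.9 ± 8.52 in control cells (SD, n = 2 each), a ratio of 0.365, and in control cells the ratio of 2i/LIF to LIF/serum was 0.361. Both rest on fewer than 60 counts per library, in which 3 is the commonest value above 0, and neither was tested.

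Pcdhb17, the beta gene with the highest level per kilobase, had 13 and 2 counts in control and 0 and 10 in Dax1KO cells in 2i/LIF. In LIF/serum it had 18 and 7 in control and 0 and 4 in Dax1KO cells (log2 fold change -2.70, SE 1.65, adjusted p = 0.311). Pcdhb2, second by level per kilobase at 0.754, did not exceed 5 counts. No beta gene shares more than 9.67% of its exon bases with other members.

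Genes on the opposite strand run through the gamma cluster, and no source used here says that strand was used in counting, so their reads cannot be told apart from those of members they overlap. BC037039, which overlaps the start of Pcdhgc3, had 136 and 140 counts in control and 68 and 111 in Dax1KO cells in 2i/LIF, and 95 and 58 in control and 132 and 107 in Dax1KO cells in LIF/serum. As for Pcdhgc3, its Dax1KO libraries lay below the controls in 2i/LIF and above them in LIF/serum. BC037039 was not called in either medium (log2 fold change -0.66, adjusted p = 0.359 in 2i/LIF, and 0.50, adjusted p = 0.355 in LIF/serum). Gm26672, opposite the starts of Pcdhga10, Pcdhgb7, Pcdhga11, Pcdhgb8 and Pcdhga12, had 65 to 117 counts.

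Of the 65 other genes within 500 kb of the clusters 39 were tested. In 2i/LIF Dax1KO cells 0 were called by edgeR, where 1.51% of all tested genes were called higher and 1.65% lower. In LIF/serum 3 were called higher (Hbegf, Fchsd1 and Tmco6) and 1 lower (Zmat2), where 8.87% and 5.78% of all tested genes were called higher and lower. Between media 9 were called lower in 2i/LIF in control cells and 8 in Dax1KO cells, and 0 higher in either by edgeR. Over all tested genes 16.5% and 13.7% were called lower and 20.3% and 15.2% higher. Among them was 3222401L13Rik, which ends 51 bases before Pcdhga1 on the same strand. It had 40 and 15 counts in control and 49 and 34 in Dax1KO cells in 2i/LIF, and 135 and 151 in control and 124 and 123 in Dax1KO cells in LIF/serum. Its log2 fold change between media was -2.46 in control cells (adjusted p = 0.0034) and -1.56 in Dax1KO cells (adjusted p = 0.026), in the same direction as that of Pcdhga1.

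Genes known to act on protocadherin promoters were measured as a list of 27, all tested. For Dax1KO in 2i/LIF 0 were called by edgeR in either direction, where 1.51% and 1.65% of all tested genes were called higher and lower. In LIF/serum Tet3, which oxidizes methylated cytosine, was higher (log2 fold change 1.27, adjusted p = 0.0446), and the cohesin subunit gene Stag2 (-0.64, adjusted p = 0.034) and the repressor gene Rest (-0.51, adjusted p = 0.0499) were lower, where 8.87% and 5.78% of all tested genes were called higher and lower. Between media 2 were higher and 8 lower in 2i/LIF in control cells and 3 higher and 4 lower in Dax1KO cells. Over all tested genes 20.3% were called higher and 16.5% lower in control cells and 15.2% and 13.7% in Dax1KO cells. These included the DNA methylation genes Dnmt3b (-1.79, adjusted p = 0.00023) and Dnmt3l (-2.42, adjusted p = 0.00054), lower in 2i/LIF in control cells, and Dnmt1 (0.81, adjusted p = 0.0036) and Uhrf1 (0.91, adjusted p = 0.00076), higher.

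Genes for proteins that bind or act with protocadherins, such as subunits of the WAVE actin complex and the protease Adam10, were measured as a list of 20, all tested. In Dax1KO cells 3 were higher and 0 lower by edgeR in 2i/LIF (Brk1, Ret and Marcks), and 6 were higher and 1 lower in LIF/serum. Over all tested genes 1.51% and 1.65% were called higher and lower in 2i/LIF and 8.87% and 5.78% in LIF/serum. Brk1, a WAVE subunit, rose in both, by 0.67 on the log2 scale in 2i/LIF (adjusted p = 0.0306) and 0.79 in LIF/serum (adjusted p = 0.0072). Between media 6 were higher and 1 lower in 2i/LIF in control cells and 3 and 1 in Dax1KO cells, beside 20.3% and 16.5% of all tested genes in control and 15.2% and 13.7% in Dax1KO cells. Adam10, which cleaves protocadherins at the cell surface, was higher in 2i/LIF in control cells (2.02, adjusted p = 0.00012) and in Dax1KO cells (0.99, adjusted p = 0.0037).

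The protocadherins outside the clusters were a list of 12, of which 4 were tested. None was called for Dax1KO in either medium by edgeR. Over all tested genes 1.51% were called higher and 1.65% lower in 2i/LIF, and 8.87% and 5.78% in LIF/serum. Pcdh19, the X-linked delta protocadherin, was higher in 2i/LIF in both lines, with 308 and 254 counts against 56 and 50 in control cells (log2 fold change 2.32, adjusted p = 0.00025) and 253 and 305 against 55 and 50 in Dax1KO cells (2.42, adjusted p = 0.00029). Pcdh1, downstream of the gamma cluster, was lower in 2i/LIF in Dax1KO cells (-0.93, adjusted p = 0.0111). Between media 20.3% of all tested genes were called higher in 2i/LIF in control cells, and 15.2% higher and 13.7% lower in Dax1KO cells.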

How the data were processed

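The authors deposited raw counts, a whole number per gene and library, without normalization. The submitters' processing notes name HISAT2 2.0.4, DESeq2 and the mm10 build, while the counting method and annotation are not given in the sources used here. Members and gene lists were chosen with earlier results of these data known. Versioned Ensembl identifiers were matched to GENCODE release M21 of GRCm38, which held 52403 of the 52550 genes and gave symbols, coordinates and shared exon bases. No sequence of these genes is reported here.

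Counts were analysed in edgeR 4.0.16 (R 4.3.3). filterByExpr kept 20749 genes, libraries were scaled by TMM (factors 0.960 to 1.04), and one quasi-likelihood fit, with a mean per group, used all 8 libraries, with a biological coefficient of variation of 20.9%. Benjamini-Hochberg adjustment was over all genes tested. A gene was called where its adjusted p was up to 0.05 and its change 1.2-fold or more, or by adjusted p alone for the difference between media. Normalized counts are counts divided by the TMM-scaled library size and multiplied by its mean. Cluster sums were not tested. Wilson intervals, from scipy 1.17.1, cover counting error only.

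The genes named are the members called in any comparison, the 2 members per cluster with the highest mean normalized count per kilobase of exon and the C-type genes. Others were named after their values were seen, or as list members by smallest adjusted p. Alternatives were DESeq2 1.42.0, RLE factors, other filters on low counts, separate fits, the replicate number as a block, other thresholds, counts divided by 3, and each library left out in turn, where the remaining library of a group is assumed to vary like the other groups.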

Additional observations from a re-analysis of the deposited data

Results flagged for a closer look

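For 2 sums and 4 of the 25 tested members, both Dax1KO libraries lay below both control libraries in 2i/LIF and above them in LIF/serum, as they did for 5.90% of all tested genes. For the gamma sum the log2 ratio of Dax1KO to control was -0.17 in 2i/LIF and 0.35 in LIF/serum, and for the sum of the A-type gamma genes it was -1.40 and 0.64. The difference between media was not tested for these sums, and the A-type sum may depend on how reads on shared exons were assigned.

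For single genes the difference was tested as an interaction with edgeR and did not pass. Pcdhga5 had log2 fold changes of -1.14 and 1.24 (adjusted p = 0.198), Pcdhga6 of -5.42 and 0.67 (adjusted p = 0.141), Pcdhga7 of -3.58 and 1.58 (adjusted p = 0.0936) and Pcdhgc3 of -0.78 and 0.31 (adjusted p = 0.220). In 2i/LIF, without the second control library, the log2 fold change was -0.77 for Pcdhga6 and -1.02 for Pcdhga7, and without the first Dax1KO library that of Pcdhgc3 was -0.39. For Pcdhga5 the log2 difference between media of 2.38 was 3.49 without the first control library in LIF/serum and 1.76 without the second. Without Pcdhgb1 the gamma sum overlapped between Dax1KO and control cells in 2i/LIF.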

How the results depend on the processing

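All values below are numbers of members called, or log2 ratios, and the cause of a change was not tested. Fits with a library left out tested 26 to 28 members, and the share of all tested genes called in them is not given. In 2i/LIF Dax1KO members numbered 0, but 3 by DESeq2 and 7 at an unadjusted p under 0.05, and 0 to 2 with single libraries left out. In LIF/serum they numbered 0, but 3 by DESeq2 and at an unadjusted p, 1 in a separate fit, and 0 to 4 with libraries left out. For the difference between media they numbered 0, but 2 by DESeq2, 9 at an unadjusted p, and 0 to 2 with libraries left out. Between media in control cells 3 became 6 by DESeq2, 0 without a filter, 7 in a separate fit and at an unadjusted p, 5 with counts divided by 3, and 0 to 6 with libraries left out. In Dax1KO cells 7 became 3 without a filter or with at least 10 counts in every library, and 2 to 8 with libraries left out. Without a filter 50 members were tested, and with at least 10 counts in every library 10 were. Under the latter Pcdhga6, Pcdhga7, Pcdhgb2 and Pcdhgb5 were not tested, and Pcdhga1, Pcdhga5 and Pcdhga11 stayed called in Dax1KO cells. RLE factors, adjusted p alone and a fold change of at least 2 moved none of these counts by over 1.5 times.

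Replicate numbers in the titles are not said to mark a shared culture or day, and deviations of same-numbered libraries correlated at 0.0592 in 2i/LIF and 0.0806 in LIF/serum across genes, so they were not treated as pairs. Entering the replicate number as a block gave 0, 0 and 0 members for the Dax1KO effects and their difference, 3 between media in control cells, where Pcdhac2 replaced Pcdhgb7, and 7 in Dax1KO cells.

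The gamma log2 ratio of Dax1KO to control went from -0.17 to 0.0364 in 2i/LIF without Pcdhgb1, and from 0.348 to 0.441 in LIF/serum with total counts in place of TMM. Without Pcdhgb1 the ratio between media went from -0.0943 to -0.62 in control and from -0.613 to -0.952 in Dax1KO cells. The alpha ratio of Dax1KO to control in LIF/serum went from 0.315 to 1.35 without Pcdhac2 and to -0.0376 with tested members only. With Pcdhb17 alone, the tested beta gene, the beta ratio was -2.77 for Dax1KO in LIF/serum, and -0.82 in control and 1.33 in Dax1KO cells between media, from -1.45, -1.47 and -0.769. Leaving out single libraries moved the alpha ratio of Dax1KO to control between -1.91 and -0.256 in 2i/LIF and between -0.259 and 1.28 in LIF/serum, and between media from 2.07 to 3.61 in control and from 0.425 to 2.08 in Dax1KO cells. It moved the beta ratio between -1.82 and -0.145 for Dax1KO in 2i/LIF, and between media from -1.83 to -1.18 in control and from -1.83 to -0.163 in Dax1KO cells.

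Of single genes, none passing the test in the full data changed sign. Pcdhga9 ranged from -3.84 to 1.14 for Dax1KO in 2i/LIF, Pcdhga4 from -0.234 to 5.39 for Dax1KO in LIF/serum and from -5.21 to 0.415 between media in Dax1KO cells, Pcdhgb6 from -4.72 to 0.594 between media in control cells and Pcdhgc4 from -5.95 to 2.09 between media in Dax1KO cells, each with libraries left out.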
